A study of Mus musculus with 28 samples.

Results

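The Rab GTPases of this series were taken as every gene symbol in the deposited count table that consists of Rab, a number and at most a letter from a to d, which gave 59 genes out of 24391 symbols. The symbols alone set which genes belong, though that choice was made with earlier results of these data known. The libraries came from motor cortex of 14 mice with the genotype Cx3CR1-Cre/TRAPfl, in which Cre driven by the promoter of the fractalkine receptor gene Cx3cr1 switches on a tagged ribosomal protein in microglia and in other macrophages that use that promoter. All mice carried both transgenes, the home cage controls included, and the sources used here give no ages. Each mouse gave a TRAP library (translating ribosome affinity purification, the mRNA bound to the tagged ribosomes) and a library of the total lysate. In each fraction 7 libraries came from mice left in the home cage and 7 from mice that had spent 1 h on the rotarod, a turning rod on which a mouse has to keep its balance. Each condition held 4 mice of cohort 1 and 3 of cohort 2, and 4 females and 3 males per the labels. The design asks which mRNAs sit on microglial ribosomes and whether they change after the exercise.

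Rab proteins are small GTPases that mark the membranes of the secretory and endocytic routes. Exchange factors load them with GTP, activating proteins return them to the GDP state, GDP dissociation inhibitors carry them through the cytosol, and effectors bound to the GTP form move, tether or fuse the vesicle. Neurons use a set of them at synaptic vesicles and in long processes, whereas microglia and other phagocytes use another set on phagosomes, lysosomes and secretory lysosomes.

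Total counts per library ran from 70090518 to 241381845, and the Rab genes took 0.347% to 0.929% of them. The label of the TRAP libraries held up against its markers: Cx3cr1 was 6.92 ± 0.14 (SE) higher in TRAP than in lysate on the log2 scale, the microglial surface protein gene Tmem119 6.55 ± 0.13 and the purinergic receptor gene P2ry12 5.69 ± 0.19. Snap25, a synaptic fusion protein of neurons, was lower in TRAP by a log2 fold of -1.82 ± 0.14, Slc17a7 of excitatory neurons by -0.99 ± 0.13, the myelin gene Mbp by -1.44 ± 0.15 and the astrocyte gene Gfap by -1.49 ± 0.13. TRAP was not free of other cells. The summed level of 10 pan-neuronal genes still ran from 2174 to 6675 CPM (counts scaled to the library size) in home cage TRAP and from 2150 to 8793 in run TRAP, against 8820 to 17870 in run lysate, and the 7 endothelial genes were higher in TRAP than in lysate by a median log2 fold of 2.17 (Cldn5 2.66 ± 0.21). All 8 genes of border-associated macrophages were higher by a median of 6.11. Sex-linked genes went against the label in both libraries of 2 run mice of cohort 2, Male1 and Female2, and matched it in the other 24 libraries. In bulk libraries, fewer cells of a type and less of an mRNA per cell cannot be told apart.

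The sequences shown first belong to the 2 paralog pairs that the results turn on, Rab7b beside Rab7 and Rab39 beside Rab39b. Each line is the first 90 coding bases, and the capitals mark the codons of the P-loop, the phosphate-binding loop of Rab GTPases. It was found as a glycine, 4 residues of any kind, a glycine, a lysine and a serine or threonine. It covers coding bases 43 to 66 in all 4 genes.
Rab7b: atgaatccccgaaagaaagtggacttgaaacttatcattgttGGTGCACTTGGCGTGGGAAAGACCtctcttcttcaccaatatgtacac
Rab7: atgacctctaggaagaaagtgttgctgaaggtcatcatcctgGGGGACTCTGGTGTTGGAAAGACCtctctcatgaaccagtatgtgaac
Rab39: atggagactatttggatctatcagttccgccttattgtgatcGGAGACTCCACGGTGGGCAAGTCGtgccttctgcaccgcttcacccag
Rab39b: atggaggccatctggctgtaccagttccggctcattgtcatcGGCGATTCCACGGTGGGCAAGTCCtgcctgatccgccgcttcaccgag

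Over the whole coding sequence Rab7b (600 bases) and Rab7 (624 bases) were identical at 62.7% of 598 aligned bases, and Rab39 and Rab39b at 72.9% of 641. The corresponding identity was 69.2% for Rab27a and Rab27b, 69.1% for Rab9 and Rab9b, 76.7% for Rab3d and Rab3a and 78.0% for Rab8b and Rab8a. These sequences are from GENCODE M21 on GRCm38. Rab7b lies on chromosome 1 from 131688695 to 131715439 on the plus strand, and none of the 50-base stretches of its transcripts occurs in another gene. Rab7 lies on chromosome 6 from 87999106 to 88045270 on the minus strand, and 12.7% of its 50-base stretches also occur in another annotated gene. Of all 59 members, 29 share no 50-base stretch with another gene and 10 share over 10% of theirs, of which Rab43 shares the most (74.5%, almost all with the overlapping model Gm45140). Counts of those 10 (Rab43, Rab4b, Rab2b, Rab24, Rab20, Rab33b, Rab6a, Rab39b, Rab11b and Rab7) are uncertain to the degree that the counting split or dropped shared reads.

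Rab mRNAs split between the fractions. Of the 57 members that passed the filter on low counts, 26 were called higher in TRAP and 25 lower (edgeR quasi-likelihood test, adjusted p under 0.05), and 6 did not pass the test (Rab1, Rab5b, Rab10, Rab12, Rab18 and Rab42). That is 89.5% of the members tested, against 74.0% of all 16716 genes tested, of which 34.0% were called higher and 40.1% lower. The median log2 fold was 0.18 over the members and -0.20 over all genes. Rab17 and Rab44 were not tested, since Rab17 was at 0 counts in 11 of 14 TRAP and 7 of 14 lysate libraries and Rab44 in 14 and 11. With library totals in place of TMM scaling, 18 members were called higher and 30 lower, and that scaling moves all genes by a median log2 of -0.51. The shares of all genes given above belong to TMM. The share under library totals is not given here, so these counts cannot be told apart from the general shift. Under library totals 7 called members changed sign (Rab1b, Rab4b, Rab11a, Rab11b, Rab14, Rab21 and Rab24), all with a log2 fold under 0.5 under TMM. All 15 members over a log2 fold of 1 under TMM and all 13 under -1 kept their sign and their call. Yet Rab31 (0.52) and Rab8a (0.498) then fell short of 1. Rab3a (-1.44), Rab3b (-1.35), Rab6a (-1.34), Rab6b (-1.21), Rab28 (-1.23), Rab5a (-1.19), Rab4a (-1.07) and Rab9 (-1.03) then passed -1. Which members lie beyond these limits thus depends on the scaling.

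For what follows, a member called with a log2 fold over 1 is on the TRAP side and a member called with a log2 fold under -1 is on the lysate side. These classes come from this comparison itself and are descriptions. The TRAP side held 15 members, 26.3% of those tested against 20.8% of all genes, and the lysate side 13, 22.8% against 22.3%. The other 29 lay between. Just inside the limits were Rab8a (1.01) and Rab31 (1.03) on the TRAP side and Rab23 (-1.17) on the lysate side, and just outside were Rab22a (0.89), Rab3d (0.86) and Rab3a (-0.93). Without overlap between the 14 TRAP and the 14 lysate libraries were 17 members, 12 higher and 5 lower in TRAP, which is 29.8% of those tested against 16.3% of all genes. In the plot of the log2 folds the family runs from Rab25 and Rab20 at the TRAP end to Rab9b and Rab38 at the lysate end.

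**Figure D1:**
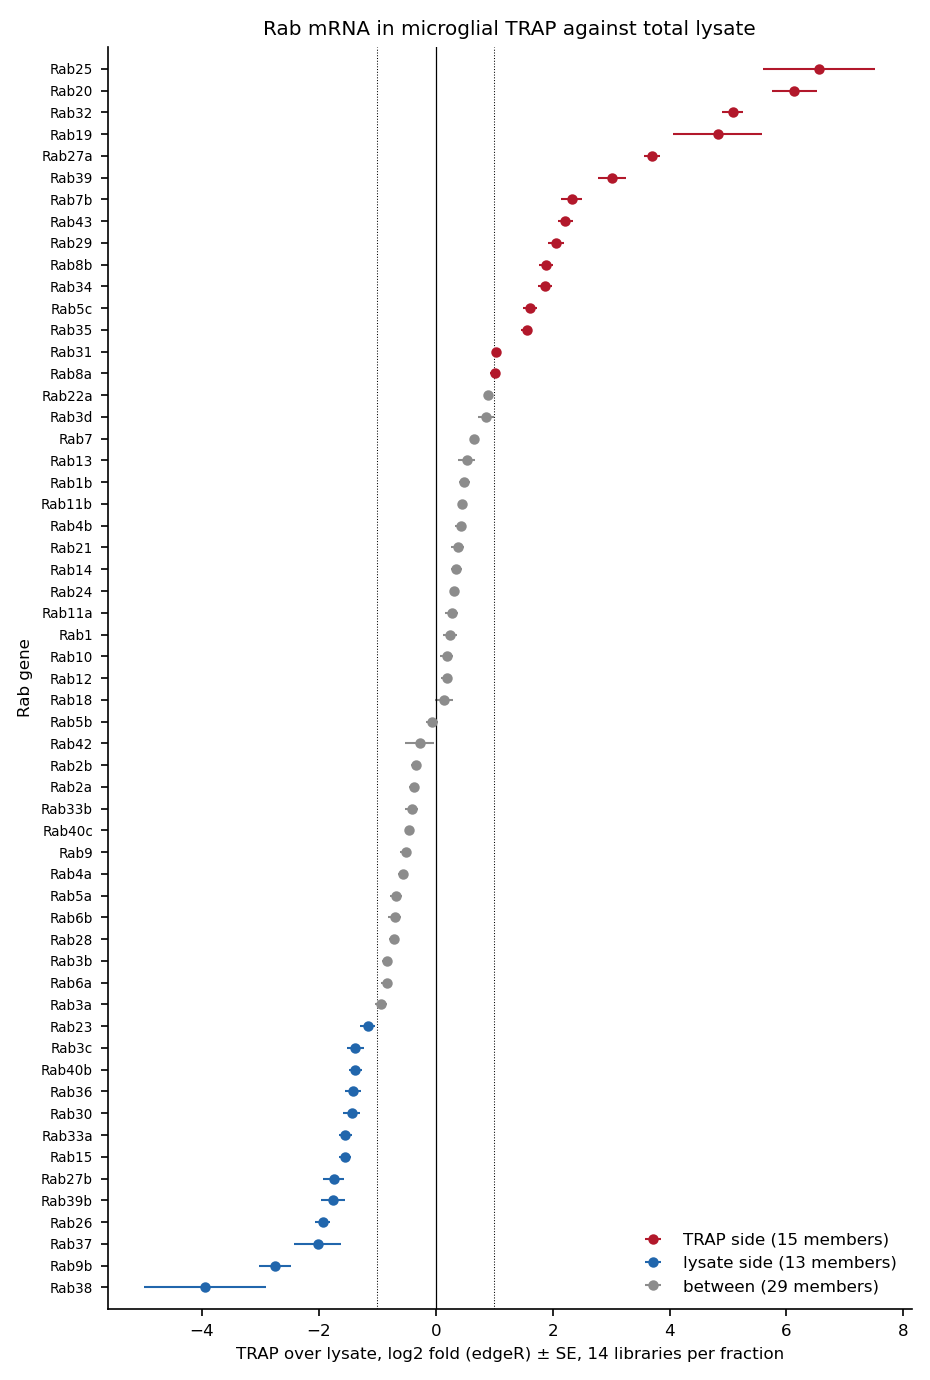
TRAP over lysate log2 fold (x axis) of each of the 57 Rab genes tested (y axis), with bars of 1 SE from edgeR over 14 libraries per fraction. Red marks the 15 members on the TRAP side, blue the 13 on the lysate side and grey the 29 between, and dotted lines stand at a log2 fold of -1 and 1. Rab25 is highest at 6.56 and Rab38 lowest at -3.95, both with wide bars.

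Rab20 and Rab32 had the highest TRAP over lysate folds among members without overlap between the fractions. Rab32, which works on lysosome-related organelles and is switched on by the exchange factor of Hps1 and Hps4, was at 49.96 CPM in the lowest, 163.2 in the median and 273.8 in the highest TRAP library. In lysate it was at 1.78, 4.71 and 12.0 CPM (all 28 libraries scaled together). No lysate library came near a TRAP library, and its log2 fold was 5.08 ± 0.19 (edgeR adjusted p = 5.14e-21). Rab20, a Rab of the maturing phagosome, was at 6.49 CPM in the lowest, 10.7 in the median and 32.7 in the highest TRAP library. Its lysate libraries ran from 0 to 0.831 CPM with a median of 0.193, and 2 of the 14 held no count. Its log2 fold was 6.13 ± 0.38, and 356 exon bases overlap E230013L22Rik on the opposite strand, whose reads cannot be told apart from its own if the counting ignored strand.

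Rab27a, which docks secretory lysosomes and exosome-bearing endosomes at the plasma membrane, ran from 13.4 to 31.3 CPM in TRAP with a median of 23.6, and from 1.21 to 2.50 in lysate with a median of 1.82. Its 2 ranges lay far apart, and its log2 fold was 3.70 ± 0.14 (edgeR adjusted p = 7.26e-21). Rab39, called Rab39a in humans and linked to phagosome acidification and autophagy, ran from 7.31 to 34.6 CPM in TRAP with a median of 16.9, and from 0.508 to 5.22 in lysate with a median of 2.24, again without overlap (log2 fold 3.02 ± 0.24). Rab29, a Golgi and lysosome Rab that recruits the kinase Lrrk2, ran from 20.6 to 36.4 CPM in TRAP and from 3.79 to 10.4 in lysate (2.06 ± 0.13). Rab34, known for lysosome positioning and cilium formation, was 1.86 ± 0.12 higher on the log2 scale and Rab31, of the trans-Golgi to endosome route, 1.03 ± 0.07, both without overlap.

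The TRAP side also held Rabs of early endosomes, recycling, exocytosis and the Golgi. Rab5c, of early endosomes, was 1.61 ± 0.11 higher on the log2 scale, Rab35, of fast recycling, 1.55 ± 0.09, and the exocytic Rab8b and Rab8a 1.89 ± 0.12 and 1.01 ± 0.08. Rab43, of the Golgi, was 2.22 ± 0.12 higher, with the sharing of reads given above. All of these were higher in TRAP than in the lysate of the same mouse in 14 of 14 mice.

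A pair of TRAP-side members rest on few reads. Rab25, best known from epithelial recycling endosomes, had 882 counts over the 14 TRAP libraries and 16 over the 14 lysate libraries, with 10 lysate and 2 TRAP libraries at 0, so that its log2 fold of 6.56 ± 0.96 depends on the few lysate reads. Rab19, a Golgi Rab, had 3432 and 189 counts, with 6 lysate libraries at 0 (4.82 ± 0.76). Their TRAP and lysate ranges overlapped.

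Of the 13 members on the lysate side, 8 are on the list of neuronal Rabs given below. That list was drawn up with earlier results of these data known. Rab26, which sits on synaptic vesicles and links them to autophagy, ran from 37.2 to 69.0 CPM in lysate with a median of 47.4, and from 7.48 to 24.8 in TRAP with a median of 12.9. The ranges did not overlap, and its log2 fold was -1.94 ± 0.13 (edgeR adjusted p = 1.25e-14). Rab15, of recycling endosomes and abundant in brain, ran from 169.0 to 410.4 CPM in lysate and from 54.6 to 159.0 in TRAP (-1.56 ± 0.10), and Rab33a, of vesicles for axon growth, from 37.1 to 52.7 and from 10.1 to 27.7 (-1.55 ± 0.11). Neither overlapped. Rab9b, a relative of the late endosome Rab Rab9, ran from 12.3 to 86.0 CPM in lysate and from 0.846 to 25.8 in TRAP (-2.75 ± 0.28), Rab39b, a gene of X-linked intellectual disability and parkinsonism, from 17.2 to 104.4 and from 2.84 to 53.2 (-1.76 ± 0.21), and Rab27b from 18.3 to 93.9 and from 2.42 to 35.3 (-1.75 ± 0.18). Those ranges overlapped across the cohorts, yet TRAP was higher than the lysate of the same mouse in 0 of 14 mice for each. Rab3a, which holds synaptic vesicles near release sites, lay just outside the limit of the lysate side (-0.93 ± 0.10). It ran from 484.9 to 909.1 CPM in lysate and from 261.3 to 457.6 in TRAP, without overlap.

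Rab38 and Rab37 stand at the low end of detection. Rab38, a melanosome Rab and close relative of Rab32, had 57 counts over the TRAP libraries, 9 of them at 0, and 842 over the lysate libraries. Its log2 fold was -3.95 ± 1.04 over both cohorts, -6.44 in cohort 1 and -2.01 in cohort 2, where it did not pass the test alone (edgeR adjusted p = 0.190). Rab37, of secretory granules, ran from 0 to 2.64 CPM in TRAP and from 2.12 to 6.86 in lysate (-2.02 ± 0.40). The remaining lysate-side members were Rab3c, Rab23, Rab30, Rab36 and Rab40b, with log2 folds from -1.44 to -1.17.

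The lists of members known from neurons and from phagocytes, which were drawn up with earlier results of these data known, differed in their counts. For comparison, 34.0% of all genes tested were called higher and 40.1% lower. All 11 Rabs listed as neuronal (Rab3a, Rab3b, Rab3c, Rab6b, Rab9b, Rab15, Rab26, Rab27b, Rab33a, Rab39b and Rab40b) were called lower in TRAP, by a median log2 fold of -1.55, and 8 of them were on the lysate side. Of 7 listed as myeloid (Rab7b, Rab20, Rab27a, Rab31, Rab32, Rab38 and Rab39), 6 were called higher and were on the TRAP side, with Rab38 the exception, and the median was 3.02. By compartment, early endosome and phagosome members numbered 5 higher and 1 lower of 7 (median 0.89), recycling endosome members 6 and 2 of 8 (0.39), and late endosome, lysosome and autophagy members 5 and 3 of 8 (0.49). Secretion and synaptic vesicle members numbered 2 higher (Rab27a and Rab3d) and 6 lower of 8 (median -1.15), and ER and Golgi members 4 and 9 of 15 (-0.37). Members of exocytosis, polarity and cilium numbered 4 and 2 of 8 (0.36).

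Close relatives often parted. Rab27a was on the TRAP side and Rab27b on the lysate side, as were Rab39 and Rab39b. Rab3d, the isoform of secretory granules outside the nervous system, was called higher in TRAP (0.86 ± 0.14) while Rab3a, Rab3b (-0.83 ± 0.09) and Rab3c (-1.37 ± 0.14) were called lower. Rab5c was called higher, Rab5a lower (-0.68 ± 0.11) and Rab5b neither way (-0.06 ± 0.10). Rab9b and Rab9 (-0.52 ± 0.09) were both called lower, as were Rab6a (-0.84 ± 0.09) and its brain form Rab6b (-0.71 ± 0.10). Rab7b and Rab7 were both called higher, by unequal folds. Differences between paralogs were not tested.

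The largest folds were not those of the most abundant members. Per kb of exon, which allows genes to be compared, Rab7 had the highest TRAP level of the family at 211.0 ± 19.4 CPM per kb (SD, n = 14), followed by Rab2a of the ER to Golgi step (185.6 ± 92.6), Rab11a of recycling endosomes (159.3 ± 86.0), Rab3a (154.4 ± 27.1) and Rab1 of ER export (127.0 ± 67.1). No neighbours in that order differ by more than their spread. Rab2a (log2 fold -0.37) and Rab3a (-0.93) were called lower in TRAP than in lysate, Rab7 and Rab11a were called higher and Rab1 was not called. The part of neuronal RNA in these TRAP levels was not tested. In lysate the order began with Rab3a (300.0 ± 67.7), Rab2a (237.2 ± 115.8), Rab6a (198.1 ± 68.4), Rab6b (147.1 ± 32.8) and Rab11a (139.0 ± 82.7), with Rab7 in place 6 (133.6 ± 9.78). Of the TRAP side, Rab32 stood highest per kb in TRAP at 70.8 CPM per kb in place 9, Rab31 at 59.4 in place 11, and Rab7b was at 2.43 in place 48.

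**Figure D2:**
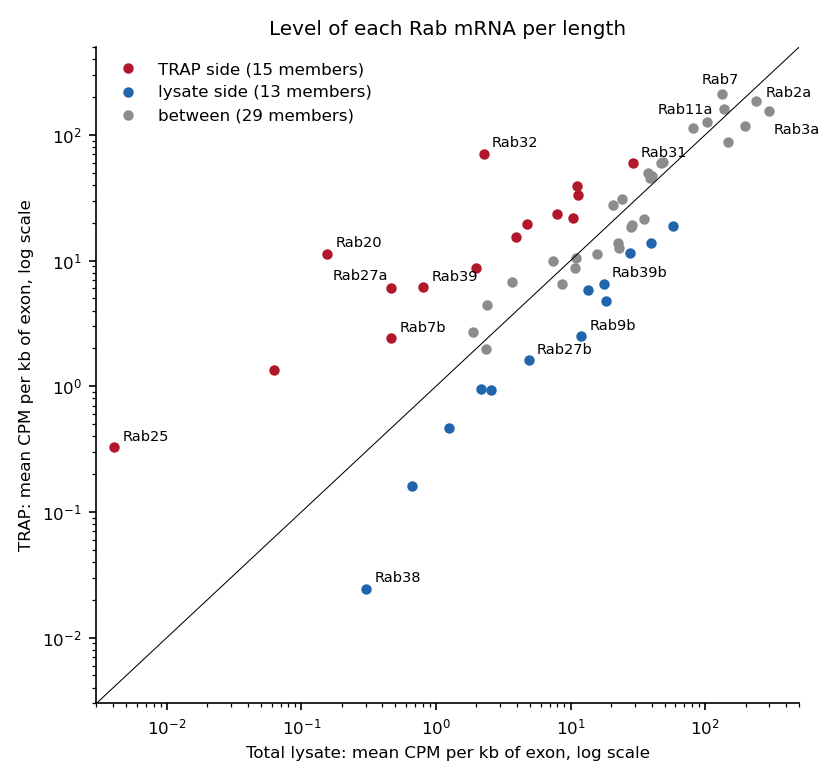
Mean CPM per kb of exon in lysate (x axis, log scale) and in TRAP (y axis, log scale) for the 57 Rab genes tested, each a mean over 14 libraries, with the diagonal where both are equal. Red, blue and grey mark the TRAP side, the lysate side and the members between. Rab7 is highest in TRAP at 211.0 while Rab32 lies farthest above the diagonal among abundant members (70.8 against 2.26).

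Levels moved with the cohort in both fractions. Rab1 in home cage TRAP was at 639.2 ± 92.8 CPM (SD, n = 4) in cohort 1 and 237.5 ± 38.0 (n = 3) in cohort 2, and in home cage lysate at 546.7 ± 19.6 and 228.8 ± 101.3. Rab20 in home cage TRAP went the other way, at 8.46 ± 1.97 and 26.5 ± 6.18 CPM, and Rab32 was at 205.4 ± 38.3 and 114.0 ± 35.5. Rab7 was level, at 544.6 ± 64.8 and 546.2 ± 31.4. The labels name the cohort, and it was a term in the fits reported here over both cohorts. The sides were set on these same libraries, both cohorts together, so calls within a cohort follow in large part from that choice. They are no independent support, and the share of all genes called within a cohort is not given beside them. Within each cohort all 15 TRAP-side members were called higher. On the lysate side 13 of 13 were called lower in cohort 1 and 12 of 13 in cohort 2, where Rab38 was not. All 11 members listed as neuronal were called lower in either cohort, and their median log2 fold was -1.27 for cohort 1 and -1.85 for cohort 2. Rab9b was at -2.05 in cohort 1 and -3.76 in cohort 2 and Rab3a at -0.62 and -1.35, while Rab33a was at -1.59 and -1.50. Differences of these folds between the cohorts were not tested.

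The start site of Rab32 carries a pair of short matches to the core letters bound by PU.1, the transcription factor that sets the microglial fate. The 250 bases upstream of its start, chr10:10558208-10558457 on the minus strand (GRCm38.p6, RefSeq), are shown. They were picked because they hold the match: in order of fold, Rab32 was the first TRAP-side member with a match in its window. The windows of Rab25 and Rab20, which had larger folds, held 0 matches. Capitals mark GAGGAA on either strand.
Rab32: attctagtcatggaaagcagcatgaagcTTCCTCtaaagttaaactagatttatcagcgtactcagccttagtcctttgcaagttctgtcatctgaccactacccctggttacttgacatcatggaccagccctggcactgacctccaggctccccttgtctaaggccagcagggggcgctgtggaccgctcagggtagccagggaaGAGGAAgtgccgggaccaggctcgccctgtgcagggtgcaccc

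The match was not more frequent on the TRAP side. GAGGAA on either strand was found in 23.3% of 32851 upstream windows of all genes, in 2 of 19 windows of TRAP-side members (Rab32 and Rab43), in 0 of 11 of lysate-side members and in 6 of 29 of members between. A start site was given for 48 of the 59 members.

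The genes of the machinery around the Rabs also held calls in both directions, beside 34.0% of all genes called higher and 40.1% lower. Of 29 exchange factor genes tested, 15 were called higher in TRAP and 7 lower, by a median log2 fold of 0.42. Highest were Rab3il1, an exchange factor for Rab8 (6.14 ± 0.17), Rin3, for Rab5 and Rab31 (5.84 ± 0.29), and Dennd1c, for Rab35 (5.82 ± 0.32). Of the Rabs just named, Rab5c, Rab8a, Rab8b, Rab31 and Rab35 were on the TRAP side, while Rab5a was called lower and Rab5b was not called. The name of Rab3il1 also points to Rab3, of which Rab3a, Rab3b and Rab3c were called lower and Rab3d higher. Other Rabs that these factors may act on were not set beside them. Lowest were Dennd6b (-1.83 ± 0.12), Rin1 (-1.68 ± 0.18) and Dennd5b (-1.17 ± 0.20). Of 35 GTPase-activating protein genes 16 were called higher and 14 lower, led by Tbc1d16 (3.41 ± 0.11), Tbc1d13 (2.03 ± 0.12) and Tbc1d2b (1.99 ± 0.15) at the upper end and Sgsm1 (-1.86 ± 0.15), Evi5l (-1.73 ± 0.13) and Tbc1d2 (-1.68 ± 0.56) at the lower.

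Effectors and carriers were also divided. Among 44 effector genes tested, calls numbered 12 upward and 18 downward in TRAP and the median was -0.14. The highest 2, Mlph (5.89 ± 0.41) and Unc13d (4.20 ± 0.24), both encode effectors of Rab27a, and the next was the kinase gene Lrrk1 (3.65 ± 0.23). The lowest were its relative Lrrk2 (-2.44 ± 0.22), Sytl2 (-2.21 ± 0.14), another Rab27 effector, and Rims1, the Rab3 effector of the active zone (-2.10 ± 0.16). Of 8 genes for GDP dissociation inhibitors, escort and prenylation, 2 were called higher and 5 lower. Gdi2, which encodes a GDP dissociation inhibitor, was higher (1.32 ± 0.11), as was Rabac1 (0.88 ± 0.10), while the escort protein gene Chm (-1.06 ± 0.19) and the prenylation enzyme gene Rabggtb (-0.78 ± 0.09) were lower.

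Rab7b was the member that stood apart after the rotarod. It takes part in transport from late endosomes to the Golgi and in lowering Toll-like receptor signals in macrophages. In home cage TRAP its level was 6.19, 4.55, 4.95 and 3.91 CPM in the 4 mice of cohort 1 and 9.98, 6.73 and 9.77 in the 3 of cohort 2 (TRAP libraries scaled together). In run TRAP it was 13.1, 10.8, 8.13 and 8.32 CPM in cohort 1 and 12.1, 14.6 and 18.3 in cohort 2. Within each cohort every run library was above every home cage library, although the highest home cage libraries of cohort 2 were above the lowest run libraries of cohort 1. Of all members tested in TRAP, Rab7b was the only such separation in either direction, and in lysate 0 members showed it, against 0.243% of 15203 genes in TRAP and 0.398% of 16091 in lysate.

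The change of Rab7b in TRAP was a log2 fold of 0.92 ± 0.18 (1.89-fold), with 1.04 ± 0.25 in cohort 1 and 0.76 ± 0.27 in cohort 2. Over all 15203 genes it did not pass the edgeR test (adjusted p = 0.0753, place 14 of all genes by p). Adjusted over the 3463 TRAP-enriched genes alone (those on the TRAP side of the lysate comparison) it passed (edgeR adjusted p = 0.0200), among 13 genes or 0.375% of them. DESeq2 called it over all genes (adjusted p = 0.0035), as it did 0.257% of genes, while limma-voom did not (adjusted p = 0.141). Over all genes 1 of 12 alternatives called it, and 0 of 14 fits with a single library left out. Over TRAP-enriched genes 8 of 13 alternatives called it. Without the 2 run mice whose sex-linked genes went against the label it was 0.95 ± 0.21, with an edgeR adjusted p of 0.230 over all genes and 0.0655 over TRAP-enriched genes. Rab7b and its adjustment were known from an earlier look at these data, so these values are no independent support.

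Leaving out single TRAP libraries kept the log2 fold of Rab7b between 0.83 and 0.98, but the call over TRAP-enriched genes rested on several of them. It was lost without the home cage libraries of male 2 of cohort 1 (edgeR adjusted p = 0.0678) or female 1 of cohort 2 (0.0951). It was also lost without the run libraries of female 1 (0.0527) or female 2 of cohort 1 (0.0532) or female 2 of cohort 2 (0.0763). It held in the other 9 cases, with adjusted p from 0.0316 to 0.0488.

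In the lysate Rab7b showed no such separation over both cohorts. Home cage lysate held 1.49, 3.90, 1.13 and 2.48 CPM in cohort 1 and 3.34, 2.90 and 2.16 in cohort 2. Run lysate held 1.42, 1.21, 1.33 and 2.91 CPM in cohort 1 and 4.02, 3.37 and 4.18 in cohort 2. The groups overlapped in cohort 1, and in cohort 2 the lowest run library was barely above the highest home cage library. The log2 fold was -0.02 ± 0.30 (edgeR adjusted p = 0.991), from -0.39 ± 0.47 in cohort 1 to 0.45 ± 0.22 in cohort 2. The difference of the change between TRAP and lysate was 0.94 ± 0.35 on the log2 scale, with an unadjusted p under 0.05 but an edgeR adjusted p of 1.00 over all genes. The cohort 2 minus cohort 1 difference of its change in TRAP was not called (-0.28 ± 0.36, edgeR adjusted p = 0.939).

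Rab7, the Rab of late endosome and lysosome fusion, showed no such separation. Its home cage TRAP libraries ran from 401.3 to 567.2 CPM with a median of 444.1, and its run TRAP libraries from 431.9 to 591.8 with a median of 449.5, overlapping almost throughout. The log2 fold was 0.03 ± 0.11 in TRAP (edgeR adjusted p = 0.999) and 0.00 ± 0.07 in lysate (0.998). Lysate levels ran from 369.2 to 456.5 CPM in home cage and from 364.0 to 465.5 in run libraries. Its TRAP over lysate fold was 0.66 ± 0.06, with every TRAP library (493.7 to 675.1 CPM, all libraries scaled together) above every lysate library (306.8 to 386.1). On the same scale Rab7b ran from 4.71 to 22.0 CPM in TRAP and from 0.927 to 3.52 in lysate, a log2 fold of 2.32 ± 0.18 or 5.01-fold. The paralog with the larger TRAP over lysate fold was the scarcer of the pair, at 2.43 against 211.0 CPM per kb in TRAP.

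**Figure D3:**
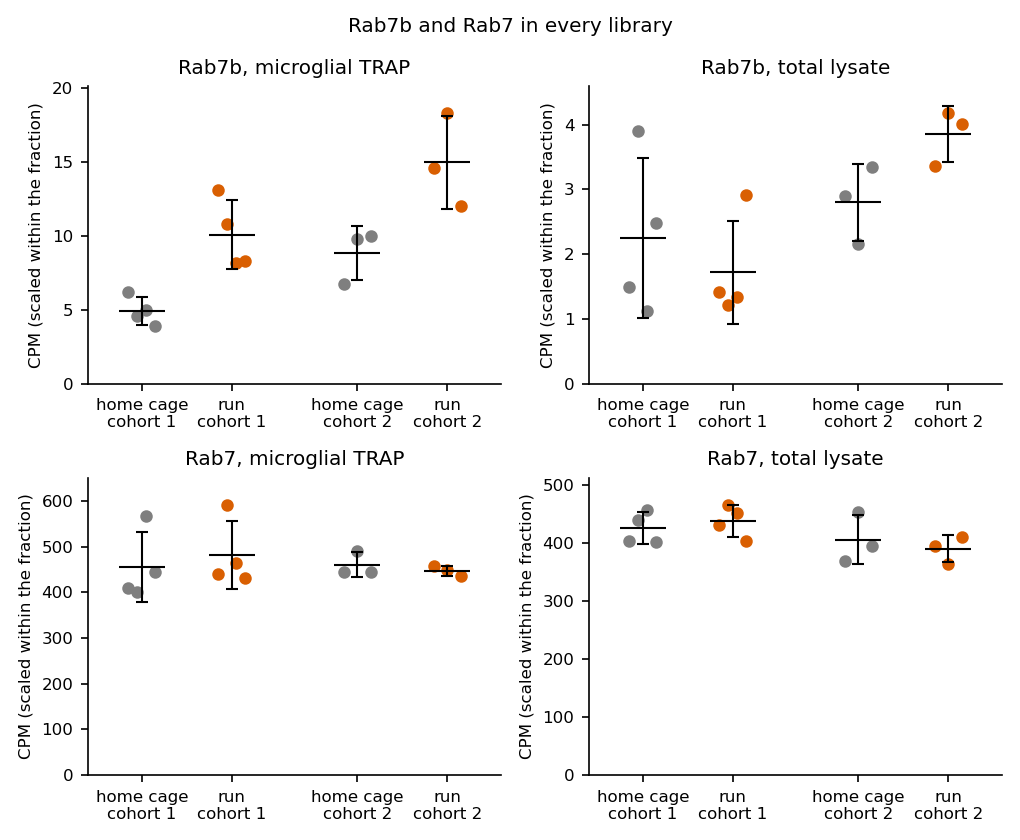
CPM of Rab7b (top) and Rab7 (bottom) in each TRAP (left) and lysate (right) library, scaled within the fraction, by condition and cohort, with the mean and bars of 1 SD over 4 libraries in cohort 1 and 3 in cohort 2. In TRAP all run libraries of Rab7b (8.13 to 18.3) lie above the home cage libraries of their own cohort, whereas those of Rab7 (431.9 to 591.8) overlap with home cage (401.3 to 567.2).

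Measures of cell makeup stood beside Rab7b as follows. Purity, taken as the mean log2 CPM of the microglial markers less the mean of the pan-neuronal ones, was 3.76 ± 0.63 (SD, n = 7) in home cage TRAP and 3.57 ± 0.68 in run TRAP, and with purity as a covariate the log2 fold of Rab7b was 0.96 ± 0.18. The 16 homeostatic microglia genes summed to 37070 to 72220 CPM in home cage and 33490 to 93670 in run TRAP, the 8 genes of border-associated macrophages to 915.3 to 1460 and 840.4 to 1771, and the 6 of monocytes and neutrophils to 5.23 to 19.9 and 5.76 to 14.6. The median of the last sum was higher in run TRAP (9.73) than in home cage TRAP (5.89), the same direction as Rab7b, with overlapping ranges. None of these genes was at 0 in all libraries of a group. The part of other macrophages, monocytes and neutrophils in the Rab7b value was not tested.

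No other member came near in TRAP. Of the 56 members tested 0 were called (edgeR, against 0.0460% or 7 of 15203 genes), and 1, Rab7b, had an unadjusted p under 0.05, against 3.55% of all genes. DESeq2 called 1 (Rab7b) and limma-voom 0. The next smallest p were those of Rab15 (log2 fold 0.23 ± 0.15) and Rab26 (0.32 ± 0.22) upward, and Rab1b (-0.18 ± 0.13), Rab3d (-0.26 ± 0.19) and Rab27a (-0.21 ± 0.18) downward, all with an edgeR adjusted p of 0.999. The TRAP-side members Rab32 (-0.13 ± 0.21), Rab20 (-0.09 ± 0.16) and Rab39 (-0.21 ± 0.21) lay within their error of no change. Rab32 ran from 75.0 to 208.0 CPM in home cage TRAP and from 41.6 to 240.0 in run TRAP, with full overlap.

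In the whole tissue 0 of 56 members were called by edgeR (against 0.0311% or 5 of 16091 genes), and 0 by DESeq2 or limma-voom. An unadjusted p under 0.05 was reached by 4 members, 7.14% against 7.41% of all genes. They were Rab40c, of a ubiquitin ligase complex (0.29 ± 0.09), Rab13, of tight junctions and polarity (-0.37 ± 0.13), Rab39b (-0.47 ± 0.21) and Rab15 (0.18 ± 0.08), with edgeR adjusted p from 0.568 to 0.668. Rab13 ran from 4.90 to 6.42 CPM in home cage lysate and from 3.92 to 5.16 in run lysate, which overlap slightly. Rab40b (-0.23 ± 0.11) and Rab31 (0.16 ± 0.08) came next by p, short of that limit.

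**Figure D4:**
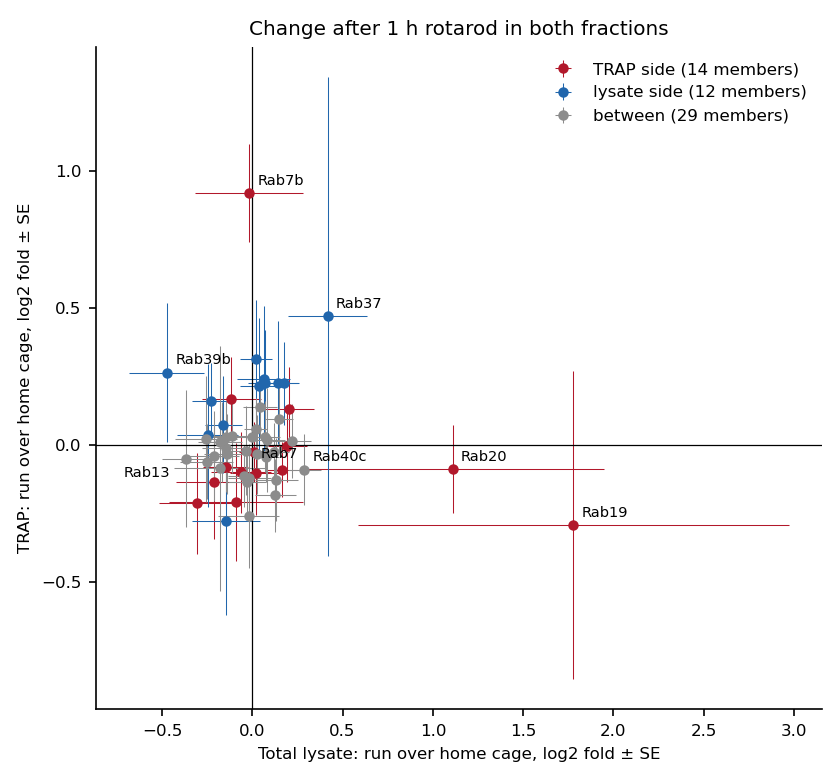
Run over home cage log2 fold in lysate (x axis) and in TRAP (y axis) with bars of 1 SE from edgeR for the 55 Rab genes tested in both, coloured by side. Rab7b stands alone at 0.92 in TRAP and -0.02 in lysate, and Rab19 and Rab20 have wide bars in lysate, where their counts are few.

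A difference of the change between the fractions was called for 0 of 57 members by edgeR, DESeq2 or limma-voom, against 0.00% of all genes. Unadjusted p under 0.05 numbered 3 (5.26% of members against 3.92% of all genes), those of Rab7b, Rab40c (-0.38 ± 0.16) and Rab39b (0.85 ± 0.40). A difference of the run over home cage change between the cohorts was called for 0 members in TRAP or in lysate by any of the 3 tools, against 0.00% of all genes in each. In TRAP 3 members had an unadjusted p under 0.05, against 4.28% of all genes. They were Rab33b (cohort 2 minus cohort 1, -1.04 ± 0.30), Rab26 (0.87 ± 0.39) and Rab28 (-0.45 ± 0.21), all with an edgeR adjusted p of 0.914. With GC correction the value of Rab28 turned to 0.24. In lysate 0 had, against 2.04% of all genes, and the smallest p was that of Rab6a (-0.37 ± 0.19).

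No lysate-side member was called in TRAP after the rotarod, and their signs were uneven between the cohorts. Of the 12 lysate-side members tested, 11 had a positive run over home cage log2 fold in TRAP, with a median of 0.23, and 4 of the 15 on the TRAP side did, with a median of -0.09. Over all genes 50.2% were positive with a median of 0.00, over all lysate-enriched genes 65.3% with a median of 0.09, and over the 10 pan-neuronal markers 9 were positive with a median of 0.17. In cohort 1 alone 11 of 12 lysate-side members were positive and in cohort 2 alone 6 of 12 (medians 0.21 and 0.01). With the purity measure as a covariate it was 10 of 12 with a median of 0.11. In lysate 7 of 13 were positive, with a median of 0.02. The part of neuronal RNA in TRAP in these signs was not tested.

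No gene of the surrounding machinery was called by edgeR after the rotarod in either fraction. An unadjusted p under 0.05 was reached in TRAP by 1 exchange factor and 1 activating protein gene, and in lysate by 1 gene of the inhibitor and escort list, 2 exchange factor, 4 activating protein and 5 effector genes. Tested in both fractions were 8 genes of the inhibitor and escort list, 29 exchange factor and 35 activating protein genes, with 43 effector genes in TRAP and 44 in lysate, and the share over all genes was 3.55% in TRAP and 7.41% in lysate. In TRAP the smallest p were those of Tbc1d8 (-0.33 ± 0.15) and Ccz1, part of the exchange factor of Rab7 (-0.25 ± 0.12), and in lysate those of Rilpl1 (0.31 ± 0.08) and Tbc1d12 (-0.55 ± 0.18), with edgeR adjusted p of 0.999, 0.999, 0.482 and 0.568.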

How the data were processed

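Raw gene counts of 28 libraries (14 mice, TRAP and lysate of each) were used as the authors deposited them, 1 whole-number count per gene symbol and library. Per the submitters' processing notes STAR 2.7.7a, featureCounts and DESeq2 were used with GRCm38; which gene models were counted, whether strand was used and how shared reads were handled is not given in the sources used here. Per the labels' protocols libraries were made with a Nextera XT kit.

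Counts were filtered with filterByExpr, scaled by TMM and fitted with edgeR 4.0.16 (R 4.3.3) quasi-likelihood tests, with cohort as a term and Benjamini-Hochberg adjustment over all genes tested (16716 for TRAP over lysate, 15203 in TRAP, 16091 in lysate). A call is an adjusted p under 0.05. Unadjusted p-values in the text come from the same fits. DESeq2 1.42.0, limma 3.58.1 (voom) and other scalings, filters, covariates and subsets were alternatives, and the fits were tested on simulated data. TRAP over lysate and the run comparisons share libraries. CPM values were scaled over all libraries for comparisons of fractions and within the fraction for run against home cage.

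Titles name the mouse, which ties each TRAP library to a lysate library: deviations of the 2 correlated at 0.18 to 0.563, over 0.1 in 14 of 14 mice, though within cohort only from -0.058 to 0.111. Libraries of a group are from separate mice and none were duplicates. Of 24391 symbols, 23957 matched GENCODE M21 on GRCm38, with all 59 members. Upstream windows are from RefSeq. Members, gene lists and classes were chosen with earlier results of these data known. Named were Rab7b and Rab7, the 8 highest and 8 lowest members by TRAP over lysate, the 5 highest per kb, and the 3 smallest p in each direction of each run comparison. Further members are named to fill the role groups. The value of 1 gene of the surrounding machinery is not reported here.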

Additional observations from a re-analysis of the deposited data

Results flagged for a closer look

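In 5 of 124 groups of 7 libraries 1 library stood far from the others by Dixon's test, and chance flags about 1 in 20 groups. Values are CPM scaled within the fraction. Rab7 was at 591.8 in the run TRAP library of female 2 of cohort 1, against 431.9 to 464.9 in the others. Rab33b was at 11.33 in the home cage TRAP library of female 1 of cohort 2, against 17.85 to 22.37. The other 3 cases were at the limit of detection: Rab37 was at 0 in the home cage TRAP library of male 1 of cohort 1 (0.3703 to 1.2 in the others), Rab38 at 0.07834 in that of male 1 of cohort 2 (0 in the others) and Rab25 at 0.01205 in the run lysate library of female 2 of cohort 2 (0 in the others).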

How the results depend on the processing

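With the mouse as a replicate block, 27 members were called higher and 25 lower in TRAP than in lysate. The share of all genes called in that fit is not given here. The TRAP minus lysate difference of the Rab7b change was 0.89 with the block, and the pairing ended no call of a named result. DESeq2 called 1 member in TRAP after the run where edgeR called 0, Rab7b at a log2 fold of 0.91. The signs of the following values turned, and the cause was not tested. For Rab7b in lysate the log2 fold was 0.25 with limma-voom, 0.0856 with no cohort term and 0.45 in cohort 2 alone, and from -0.18 to 0.23 with single libraries left out. For Rab7 in TRAP it was -0.0312 with library totals and -0.0464 in cohort 2 alone, and -0.0360 to 0.0900 with single libraries left out. For Rab7 in lysate it was 0.001 with no cohort term, 0.0193 without the 2 mice of doubtful sex label and 0.0369 in cohort 1 alone, and -0.0239 to 0.0360 with single libraries left out. The difference between fractions for Rab7 was -0.0155 with library totals and -0.0212 to 0.0571 with single mice left out. Rab26 in TRAP was -0.0706 in cohort 1 alone, and the cohort difference of the Rab28 change was 0.24 with GC correction against -0.45 without. Over all alternatives, values that answer a comparison kept direction and side of the threshold in 172 cases, and the DESeq2 count and Rab7b value above were the other 2. Single-gene values kept both in 1154 cases, turned sign in 25 and lost the call in 11 (Rab38 in cohort 2 alone, and Rab7b adjusted over TRAP-enriched genes). Low counts limit Rab19, Rab25, Rab37 and Rab38.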
